A study of Mus musculus with 20 samples.

Results

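Apolipoproteins are the proteins that coat lipoprotein particles, and 10 of their genes (Apoa1, Apoa2, Apoa4, Apoa5, Apob, Apoc1, Apoc2, Apoc3, Apoe and Apom) were followed here in mouse liver. They were chosen by name, and all 10 were found among the 49315 genes of the deposited table. Liver RNA came from 20 mice in which obesity and steatohepatitis were induced by the AMLN diet, which is rich in fat, fructose and cholesterol. Of these, 10 mice received S217879 at 30 mg/kg by mouth once daily, and 10 received the vehicle, 1% hydroxyethylcellulose (HEC), both for 8 weeks. S217879 is described by the study as a compound that separates the transcription factor NRF2 from its repressor KEAP1. Both groups carried the same diet and disease, no group on a normal diet was analysed here, and the sources used here do not give strain, sex or age. Each library is 1 separately numbered animal.

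Lipoproteins carry fat and cholesterol through the blood. Very-low-density lipoprotein (VLDL) is built in the liver around 1 molecule of apolipoprotein B and carries triglyceride outward, lipoprotein lipase unloads it in other tissues, and the liver takes the remnants back up through receptors that bind apolipoprotein E. High-density lipoprotein (HDL) is built around apolipoprotein A-I and carries cholesterol back to the liver. Hepatocytes make most of these proteins, and in the mouse the liver also makes apolipoprotein A-IV, which in humans comes mainly from the intestine.

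Values are in TPM, which states how much of a library a gene takes once its length is allowed for. TPM keeps no depth, so read numbers are unknown, no counting interval can be given, and the error is the spread between animals. A library had between 24659 and 27744 genes above 0 TPM. The liver label was borne out by Alb, the gene of serum albumin, at 29158 ± 4509 TPM in S217879 livers and 33782 ± 8325 TPM in vehicle livers (SD, n = 10 each). A set of 4 rRNA-type genes (Gm23935, Gm24270, Gm42418, Mir6236) took 24.0% ± 6.78 of all TPM in S217879 livers and 30.0% ± 13.6 in vehicle livers. Vehicle replicates 6 and 7 stood apart with 58.2% and 50.7%, so that all their other genes shared a smaller remainder, and the log2 difference of each member is also given without them. Groups were compared with limma on log2(TPM + 0.5), and a gene was called higher or lower at a Benjamini-Hochberg adjusted p under 0.05 over all 13401 genes that averaged 1 TPM or more.

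Of the 10 apolipoproteins, all of which reached that average, 2 were higher in S217879 livers (Apoc1 and Apoa2) and 3 were lower (Apoa4, Apoa1 and Apom). Across all tested genes 6.07% were called higher and 23.5% lower, 29.6% in all, so the share of apolipoproteins called lower was near the background. The median log2 difference was -0.16 over the 10 members and -0.12 over all tested genes. Scaling each library by its median ratio to a common profile (median-of-ratios scaling) moved the median of all genes by 0.11 on the log2 scale. On that scale 3 members were higher, with Apoe added, and 4 were lower, with Apoc2 added, against backgrounds of 26.6% higher and 27.1% lower. Without the 4 rRNA-type genes, 2 members were higher and 7 were lower, against backgrounds of 7.15% and 63.1%. Without vehicle replicates 6 and 7, 2 members were higher and 6 were lower, against backgrounds of 5.56% and 54.4%. Without vehicle replicate 6 alone 5 were lower, with Apob and Apoc2 added, as were 5194 of all genes against 3151 in the full set, and without S217879 replicate 5 the number of members higher was 1. The 5 calls made on the deposited values kept their direction on all 3 scales and without these replicates. In bulk liver, fewer cells of a type and less RNA per cell cannot be told apart.

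**Figure D1:**
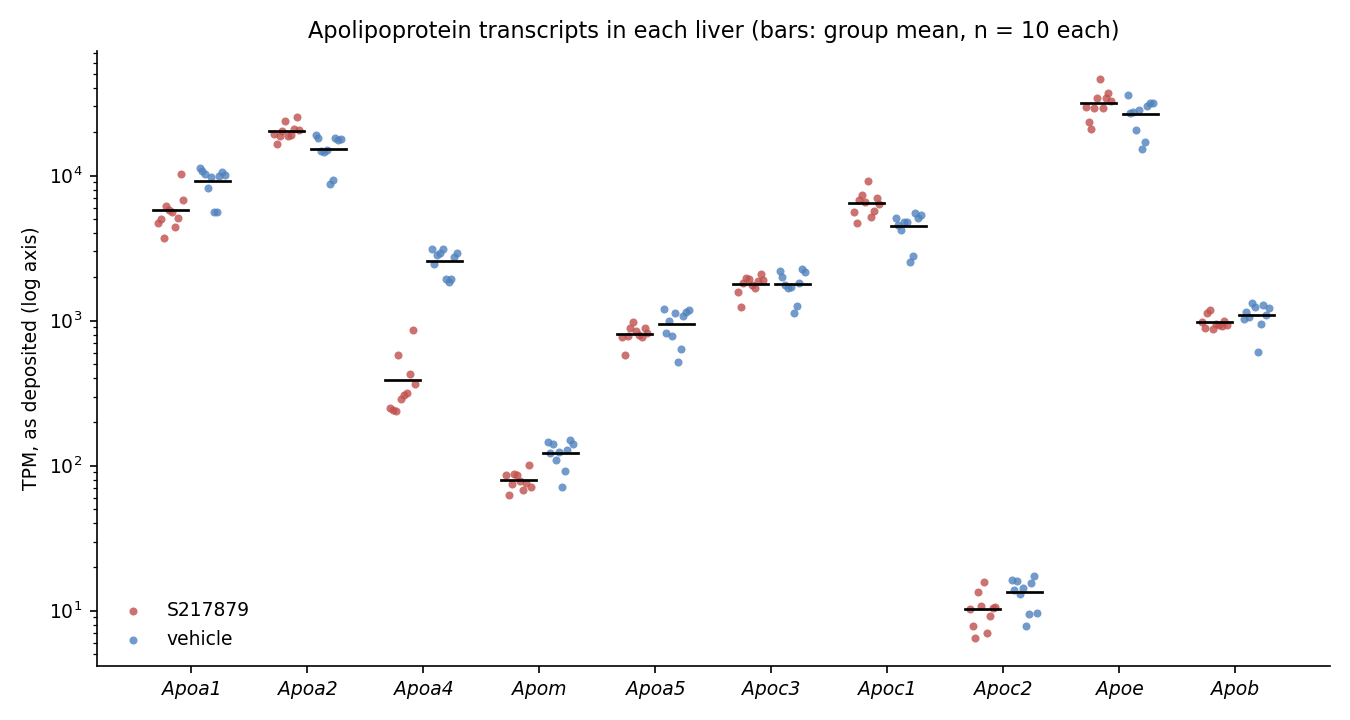
TPM of each apolipoprotein (log axis) in each liver, S217879 left and vehicle right for each gene, with a bar at the group mean (n = 10 each). Apoa4 is the gene whose groups do not overlap, and the 2 low vehicle points in most genes are replicates 6 and 7.

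The apolipoproteins covered a wide range of length-scaled levels. Apoe was the most abundant member in both groups, at 31777 ± 7229 TPM in S217879 livers and 26507 ± 6703 TPM in vehicle livers, which made it gene 2 and gene 3 of the whole table by mean TPM. Apoa2 followed as gene 7 in both. In S217879 livers the order then ran Apoc1, Apoa1, Apoc3, Apob, Apoa5, Apoa4, Apom and Apoc2. In vehicle livers it ran Apoa1, Apoc1, Apoa4, Apoc3, Apob, Apoa5, Apom and Apoc2. The place of Apoc2 is uncertain, because it shares 79.5% of its exon bases with Gm44805, a gene model on the same strand. Within the family Apoa4 held place 8 in S217879 livers and place 5 in vehicle livers, and in the whole table it was gene 242 in S217879 livers and gene 35 in vehicle livers. Neighbours in this order were not always apart: Apoc1 exceeded Apoa1 in 7 of 10 S217879 livers, and Apob exceeded Apoa5 in 9 of 10 S217879 and 8 of 10 vehicle livers, whereas every other neighbouring pair had the same order in all 10 livers of its group.

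Together the 10 genes made up 6.83% ± 1.10 of the library in S217879 livers and 6.21% ± 1.42 in vehicle livers. With the 4 rRNA-type genes left out of the total, the share was 8.98% ± 1.11 in S217879 livers and 8.82% ± 0.493 in vehicle livers. The summed pool thus differed by less than its spread between animals. Apoa1 held 8.36% ± 1.70 of the pool in S217879 livers and 14.9% ± 0.781 in vehicle livers, and Apoa4 held 0.555% ± 0.217 in S217879 livers and 4.29% ± 0.803 in vehicle livers. Apoa2 held 30.0% ± 3.13 of the pool in S217879 livers and 24.7% ± 1.38 in vehicle livers, and Apoc1 held 9.49% ± 1.46 in S217879 livers and 7.24% ± 0.642 in vehicle livers. Apoe held 46.1% ± 4.38 in S217879 livers and 42.5% ± 2.19 in vehicle livers. These shares are a description with no test.

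**Figure D2:**
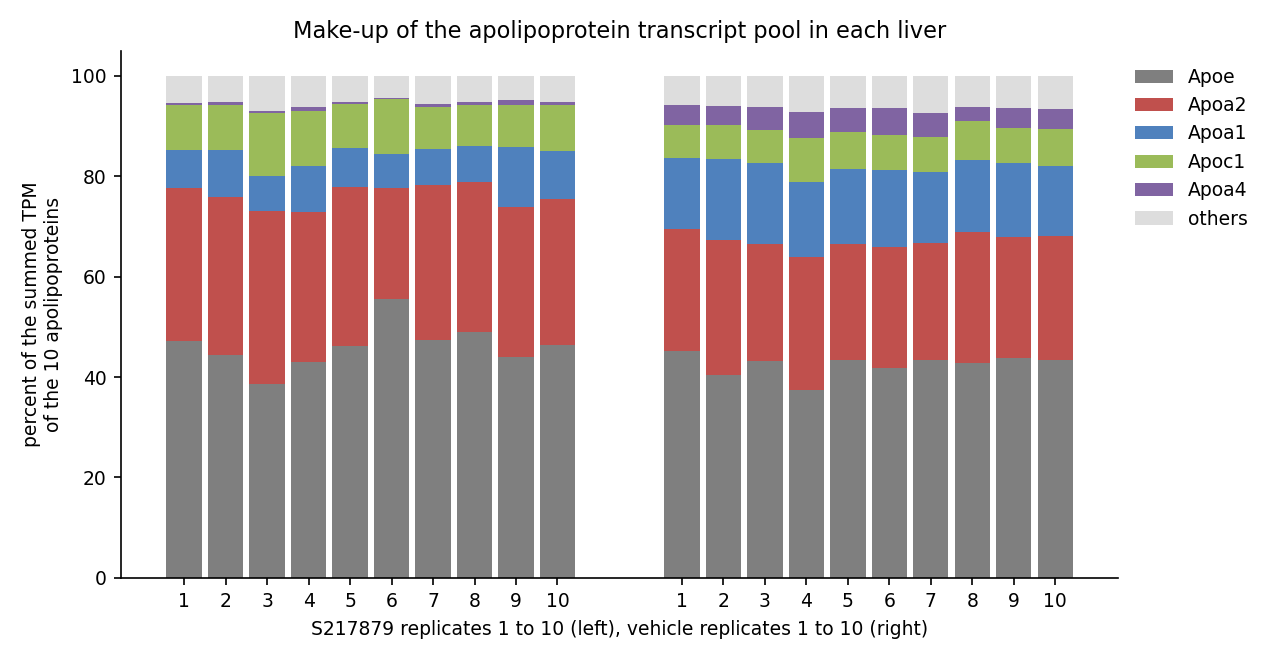
Share of each apolipoprotein in the summed TPM of the 10 genes (percent), 1 bar per liver, S217879 replicates on the left and vehicle replicates on the right. The Apoa4 band averages 0.555% in S217879 livers and 4.29% in vehicle livers, and the Apoa1 band averages 8.36% in S217879 livers and 14.9% in vehicle livers.

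Among the HDL apolipoproteins, Apoa4 showed by far the widest difference. Its product rides on chylomicrons and HDL, and in mouse liver its transcript is known to be abundant in steatosis. Apoa4 ranged from 238.4 to 863.6 TPM in S217879 livers with a median of 310.8, and from 1861 to 3135 TPM in vehicle livers with a median of 2806. Every S217879 liver lay below every vehicle liver. Groups that did not overlap were found for 3.73% of all tested genes, 1.89% with S217879 lower and 1.84% with it higher. The log2 difference was -2.84 (SE 0.19), 7.18-fold lower in S217879 livers, with an adjusted p of 1.12e-12 (limma). Of all tested genes, 4 had a lower log2 difference. It passed the threshold in each of the 35 alternative settings, where it was at most -2.71, and without vehicle replicates 6 and 7 it was -2.95.

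Apoa4 was also the apolipoprotein that varied most from animal to animal within a group, with a pooled within-group SD of 0.48 on the log2 scale. The highest S217879 values, 863.6 TPM in replicate 9 and 577.7 TPM in replicate 4, were still below the lowest vehicle value. The genes whose deviations from the group means were most like those of Apoa4 over the 20 livers, after median-of-ratios scaling, were Lcn2 (Pearson's r 0.81), Ggt5 (0.80), Hp (0.80), Borcs7 (0.80) and Cyb561 (0.78). Lcn2 encodes lipocalin, an acute-phase iron-sequestering protein, and averaged 42.4 ± 27.0 TPM in S217879 livers and 80.8 ± 15.6 TPM in vehicle livers. Hp encodes haptoglobin, the haemoglobin-binding acute-phase protein of plasma, and averaged 3676 ± 1121 TPM in S217879 livers and 4791 ± 834 TPM in vehicle livers. Within S217879 livers and within vehicle livers, r was 0.82 and 0.83 for Lcn2, 0.82 and 0.72 for Hp, and 0.82 and 0.89 for Borcs7. For Ggt5 it was 0.90 and 0.57, and for Cyb561 0.88 and 0.31. These likenesses share libraries and scaling and are a description with no test.

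Apoa4 is a gene of the intestine as well as of the mouse liver, so intestine markers were read beside it. Of 12 such markers, 8 (Lct, Alpi, Sis, Cdx1, Cdx2, Muc2, Reg3g and Fabp6) averaged under 0.1 TPM in both groups. Krt20, an epithelial keratin, averaged 0.721 ± 0.422 TPM in S217879 livers and 0.231 ± 0.160 TPM in vehicle livers, and Vil1, the brush border protein villin, averaged 0.266 ± 0.121 TPM in S217879 livers and 0.470 ± 0.139 TPM in vehicle livers; both fell under the minimum for testing. Fabp2, a fatty acid carrier that liver also expresses, averaged 169 ± 41.2 TPM in S217879 livers and 197 ± 46.6 TPM in vehicle livers and was not called (adjusted p = 0.301, limma). Slc5a1, the sodium-glucose carrier, was lower, at 1.19 ± 0.532 TPM in S217879 livers and 3.04 ± 0.688 TPM in vehicle livers. A gene model on the opposite strand, Gm47528, covers 34.9% of the exon bases of Apoa4, and it was also lower, at 1.21 ± 0.553 TPM in S217879 livers and 6.41 ± 1.61 TPM in vehicle livers. The sources used here do not say whether the authors' counting used strand, so reads from the 2 models cannot be told apart, although Gm47528 had a small fraction of the level of Apoa4.

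Apoa1, the structural protein of HDL and activator of its cholesterol-esterifying enzyme, was lower. It ranged from 3719 to 10234 TPM in S217879 livers with a median of 5342, and from 5598 to 11284 TPM in vehicle livers with a median of 10018. The groups overlapped, since S217879 replicate 9 reached 10234 TPM and vehicle replicates 6 and 7 lay at 5598 and 5599 TPM. Below the vehicle median were 9 of 10 S217879 livers. The log2 difference was -0.69 (SE 0.17, adjusted p = 0.0013, limma), 1.62-fold lower, and it stayed past the threshold in 35 of 35 alternative settings. Without vehicle replicates 6 and 7 it was -0.86, and with median-of-ratios scaling -0.58.

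Apoa2, the second protein of HDL, went the other way. It ranged from 16637 to 25339 TPM in S217879 livers with a median of 19754, and from 8814 to 19028 TPM in vehicle livers with a median of 16316. All 10 S217879 livers lay above the vehicle median and 6 lay above the highest vehicle liver. This gave a log2 difference of 0.44 (SE 0.16, adjusted p = 0.029, limma), 1.36-fold higher. The call was lost with quantile normalization (log2 difference 0.06, adjusted p = 0.68) and without S217879 replicate 5 (0.41, adjusted p = 0.057). On the median-of-ratios scale its S217879 and vehicle ranges were apart, as were those of Apoa4, Apoc1 and Apom. The all-gene share of such separation was not counted on that scale. Without vehicle replicates 6 and 7 the log2 difference of Apoa2 was 0.26 and still past the threshold (adjusted p = 0.015).

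Apom, whose product carries sphingosine-1-phosphate on HDL, was lower. It ranged from 63.0 to 101.5 TPM in S217879 livers with a median of 77.1, and from 71.4 to 151.4 TPM in vehicle livers with a median of 125.8. All 10 S217879 livers lay below the vehicle median, and the lone vehicle values within the S217879 range came from replicates 6 and 7. The log2 difference was -0.61 (SE 0.13, adjusted p = 2.8e-04, limma), 1.53-fold lower, and passed in 35 of 35 settings (-0.75 without vehicle replicates 6 and 7). Without those replicates, the groups did not overlap, and with median-of-ratios scaling all 20 livers fell into separate ranges. No all-gene share of such separation was counted for either setting.

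**Figure D3:**
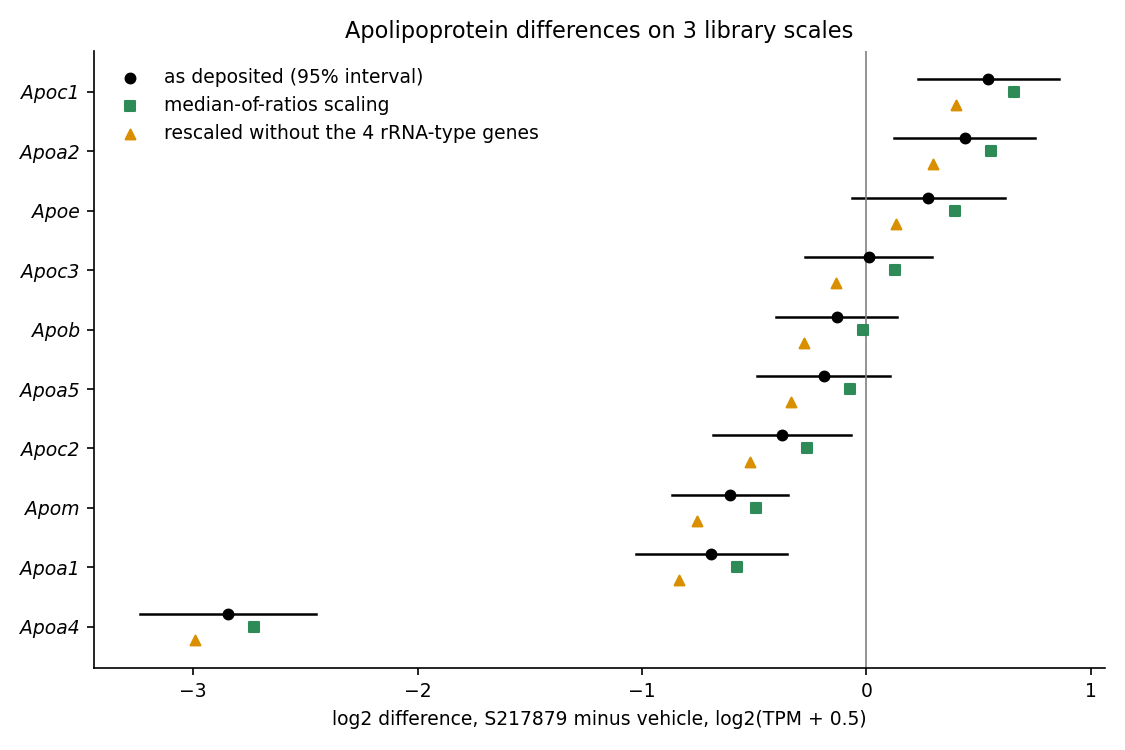
Log2 difference of each apolipoprotein, S217879 minus vehicle, on log2(TPM + 0.5), with n = 10 each. Circles with 95% intervals are the deposited values, squares follow median-of-ratios scaling and triangles follow rescaling without the 4 rRNA-type genes. Apoa4 stands at -2.84, Apoc1 at 0.54, and Apoc3 and Apob lie nearest 0 on the deposited scale.

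The apolipoproteins that steer lipoprotein lipase showed smaller differences. Apoc2, the obligatory cofactor of the lipase, was the least abundant member, at 10.2 ± 2.83 TPM in S217879 livers and 13.4 ± 3.28 TPM in vehicle livers. Its log2 difference of -0.38 (SE 0.15) did not pass (adjusted p = 0.060, limma), and it was called lower in 12 of 35 alternative settings, among them the fit without vehicle replicates 6 and 7 (-0.52, adjusted p = 0.0049). Apoc2 shares 79.5% of its exon bases with Gm44805, a model on the same strand that runs through to Apoc4, so its value is uncertain wherever the counting split or dropped shared reads. Gm44805 itself averaged 7.45 ± 2.30 TPM in S217879 livers and 8.73 ± 1.70 TPM in vehicle livers.

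Apoc3, an inhibitor of the lipase and of remnant uptake, averaged 1787 ± 240 TPM in S217879 livers and 1799 ± 384 TPM in vehicle livers. Its log2 difference was 0.01 with a 95% interval from -0.27 to 0.29 (adjusted p = 0.97, limma). That sign depended on the scale and on the libraries: it was called lower with quantile normalization (-0.24, adjusted p = 6.9e-04) and without the 4 rRNA-type genes (-0.13, adjusted p = 0.023), and was 0.13 and not called with median-of-ratios scaling. Without vehicle replicates 6 and 7 it was -0.13 and not called (adjusted p = 0.24, limma), and leaving out 1 library at a time gave -0.06 to 0.07. Apoa5, which promotes triglyceride hydrolysis by the lipase, averaged 812 ± 105 TPM in S217879 livers and 952 ± 247 TPM in vehicle livers. Its difference of -0.19 had a 95% interval from -0.49 to 0.11 (adjusted p = 0.35, limma), and it was called lower in 6 of 35 settings, among them the fit without vehicle replicates 6 and 7 (-0.36, adjusted p = 0.0041). All 10 S217879 livers lay below the vehicle median of Apoa5, but vehicle replicates 6 and 7, at 516.1 and 632.8 TPM, were among the 3 lowest of the 20 livers.

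Apoe, the ligand by which remnants bind their receptors on the liver, ranged from 20938 to 46612 TPM in S217879 livers with a median of 31222, and from 15212 to 35712 TPM in vehicle livers with a median of 27982. The groups overlapped widely. Its log2 difference was 0.28 (SE 0.17, adjusted p = 0.22, limma). Apoe was called higher after median-of-ratios scaling, at 0.39 (adjusted p = 0.0036), and after the same scaling without vehicle replicates 6 and 7, and in none of the other 33 settings. Without vehicle replicates 6 and 7, on the deposited scale, it stood at 0.11 (adjusted p = 0.48, limma).

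Apoc1, which lies beside Apoe and is known to slow receptor uptake of lipoproteins, was higher. It ranged from 4736 to 9188 TPM in S217879 livers with a median of 6478, and from 2539 to 5536 TPM in vehicle livers with a median of 4786. Of the S217879 livers, 8 lay above the highest vehicle liver. The log2 difference was 0.54 (SE 0.16, adjusted p = 0.0066, limma), 1.46-fold higher, and passed in 35 of 35 settings (0.37 without vehicle replicates 6 and 7). On the median-of-ratios scale the S217879 range of Apoc1 (5607 to 9352) lay wholly above its vehicle range (3556 to 4807).

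Macrophages also make Apoe and Apoc1, and their markers differed between the groups. Of 16 macrophage markers 12 were lower in S217879 livers, where 23.5% of all tested genes were. The others, Clec4f, Timd4, Vsig4 and Marco, were not called. With median-of-ratios scaling 12 macrophage markers were lower, against 27.1% of all genes. The summed level of the 16 ran from 794 to 1420 TPM in S217879 livers and from 1281 to 2121 TPM in vehicle livers. Gpnmb, a marker of lipid-laden macrophages, averaged 8.79 ± 2.95 TPM in S217879 livers and 23.3 ± 4.53 TPM in vehicle livers, and Cd63 averaged 44.5 ± 13.4 TPM in S217879 livers and 123 ± 24.0 TPM in vehicle livers. The 10 stellate cell markers were all lower, where 23.5% of all tested genes were. With median-of-ratios scaling 9 were lower, against 27.1% of all genes, and leaving out 1 library at a time gave 7 to 10. The calls of Acta2, Dcn and Des held in 15 of 35, 17 of 35 and 22 of 34 alternative settings. Col1a1 averaged 23.9 ± 6.53 TPM in S217879 livers and 58.4 ± 11.5 TPM in vehicle livers. Of 8 endothelial markers 4 were higher, where 6.07% of all tested genes were. With median-of-ratios scaling 6 were higher, against 26.6% of all genes. Among the 4 was Kdr, a receptor of vascular growth factor, at 14.3 ± 1.57 TPM in S217879 livers and 10.7 ± 2.59 TPM in vehicle livers. Their part in the apolipoprotein differences was not tested.

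Apob, the scaffold of VLDL, averaged 981 ± 104 TPM in S217879 livers and 1093 ± 206 TPM in vehicle livers. Its log2 difference was -0.13 with a 95% interval from -0.40 to 0.14 (adjusted p = 0.48, limma). Vehicle replicate 6 was the lowest liver at 604.6 TPM. Apob was called lower in 7 of 35 settings, among them the fits without vehicle replicate 6 and without vehicle replicates 6 and 7 (-0.26, adjusted p = 0.0055), and with median-of-ratios scaling it stood at -0.02.

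Because a ratio of 2 genes in 1 library does not depend on the scale of that library, 9 fixed ratios between members were compared with two-sided permutation tests of 100000 resamples, adjusted over the 9. Of them, 8 passed the threshold, and they did so in each of 23 alternative settings. Since 7 of the 9 have Apoa1 as denominator, they are not independent of each other. The ratio of Apoa2 to Apoa1, the main HDL proteins, averaged 3.70 ± 0.746 in S217879 livers and 1.66 ± 0.118 in vehicle livers. It lay between 2.48 and 5.04 in S217879 livers and between 1.45 and 1.83 in vehicle livers, so that no liver of either group reached the other group's range. Its log2 difference was 1.13 (permutation p = 2e-05, the smallest that the resamples can give, adjusted p = 9e-05), and vehicle replicates 6 and 7 lay between the other vehicle livers.

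The ratio of Apoe to Apoa1 averaged 5.74 ± 1.34 in S217879 livers and 2.87 ± 0.246 in vehicle livers, again with no overlap (permutation, adjusted p = 9e-05). Apoa4 to Apoa1, genes of the same cluster, averaged 0.0656 ± 0.0165 in S217879 livers and 0.289 ± 0.0527 in vehicle livers, also without overlap (permutation, adjusted p = 1.2e-04), so the difference in Apoa4 exceeded that in Apoa1. Apoc3 to Apoa1 averaged 0.327 ± 0.0774 in S217879 livers and 0.197 ± 0.0183 in vehicle livers (permutation, adjusted p = 1.3e-04). Apoa5 to Apoa1 averaged 0.149 ± 0.0350 in S217879 livers and 0.103 ± 0.0128 in vehicle livers (permutation, adjusted p = 0.0022). Apob to Apoa1 averaged 0.183 ± 0.0552 in S217879 livers and 0.122 ± 0.0258 in vehicle livers (permutation, adjusted p = 0.0050). Of the 7 genes divided by Apoa1, all but Apoa4 and Apom thus passed with a higher ratio in S217879 livers.

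Apom to Apoa1 averaged 0.0145 ± 0.00311 in S217879 livers and 0.0135 ± 0.00139 in vehicle livers, a log2 difference of 0.08 (SE 0.11, permutation p = 0.46), within the spread between animals. Of the genes near Apoe, the ratio of Apoc1 to Apoe averaged 0.208 ± 0.0469 in S217879 livers and 0.171 ± 0.0238 in vehicle livers (log2 difference 0.27, permutation, adjusted p = 0.017). The ratio of Apoc2 to Apoe averaged 3.22e-04 ± 6.02e-05 in S217879 livers and 5.13e-04 ± 8.74e-05 in vehicle livers (log2 difference -0.65, permutation, adjusted p = 2.5e-04), with the limit on Apoc2 given above.

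**Figure D4:**
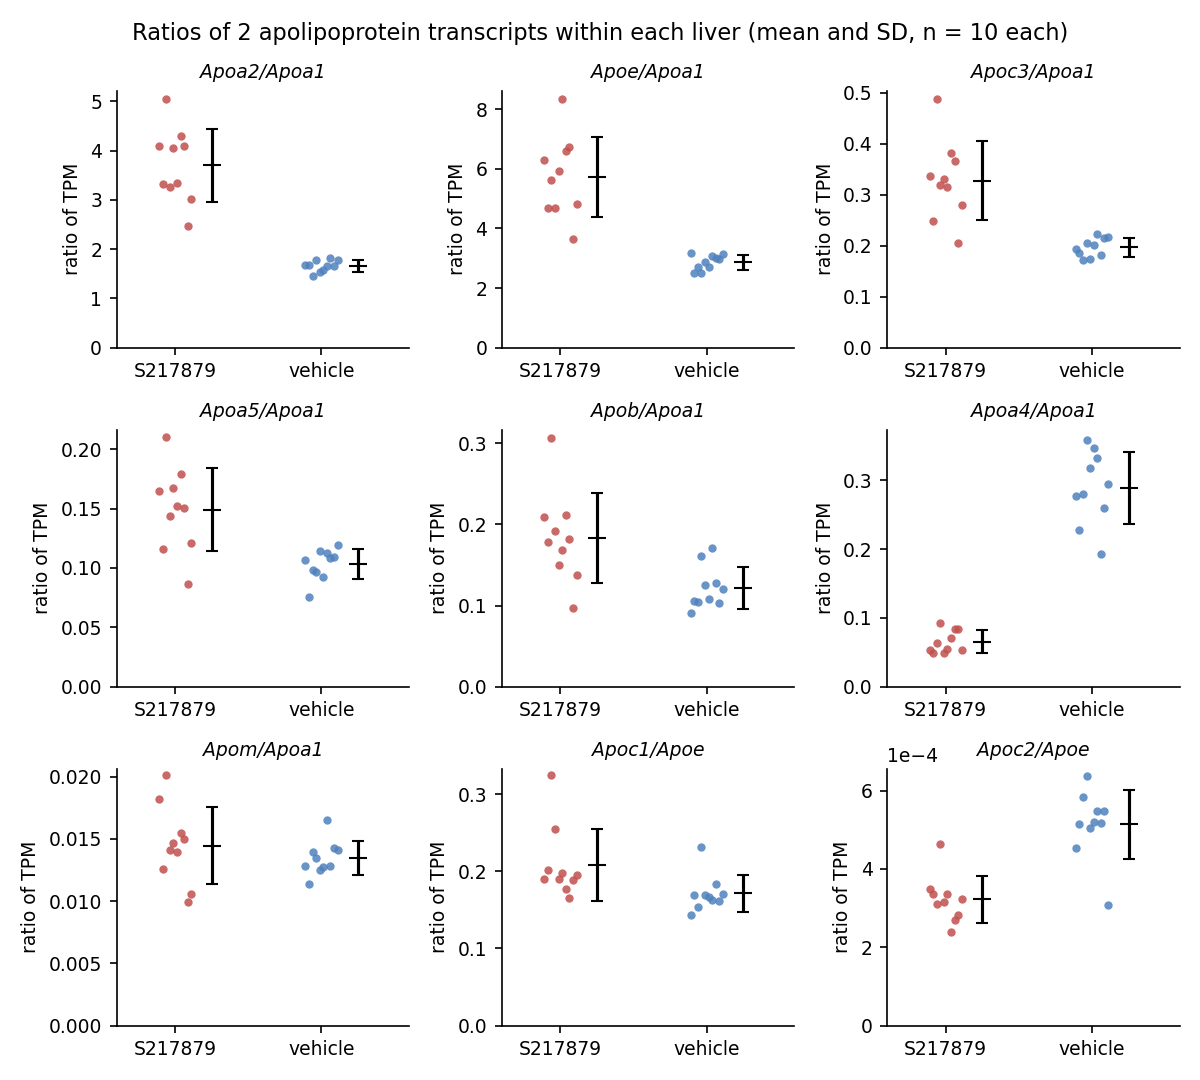
Ratio of the TPM of 2 apolipoproteins in each liver, S217879 left and vehicle right in each panel, with mean and SD (n = 10 each). The groups do not overlap for Apoa2/Apoa1, Apoe/Apoa1 and Apoa4/Apoa1, and Apom/Apoa1 averages 0.0145 in S217879 livers and 0.0135 in vehicle livers.

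Most members sit in gene clusters. On chromosome 9 (GRCm38), Apoa1 (46228580 to 46230466, plus strand), Apoc3 (46232933 to 46235636, minus), Apoa4 (46240696 to 46243459, plus) and Apoa5 (46268633 to 46271919, plus) lie within 43.34 kb. Of these 4 neighbours, Apoa1 and Apoa4 were called lower, and Apoc3, which lies between them, had a log2 difference of 0.01. On chromosome 7, Apoc2 (19671579 to 19677941), Apoc1 (19689481 to 19692660) and Apoe (19696109 to 19699188), all on the minus strand, lie within 27.61 kb, with Apoc4 among them. There Apoc1 was called higher while Apoc2 stood at -0.38. Apoc4 averaged 299 ± 62.8 TPM in S217879 livers and 283 ± 60.9 TPM in vehicle livers and was not called (adjusted p = 0.69, limma). Apoa2 lies on chromosome 1 (171225054 to 171226379, plus), Apob on chromosome 12 (7977648 to 8016835, plus) and Apom on chromosome 17 (35128997 to 35132050, minus).

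**Figure D5:**
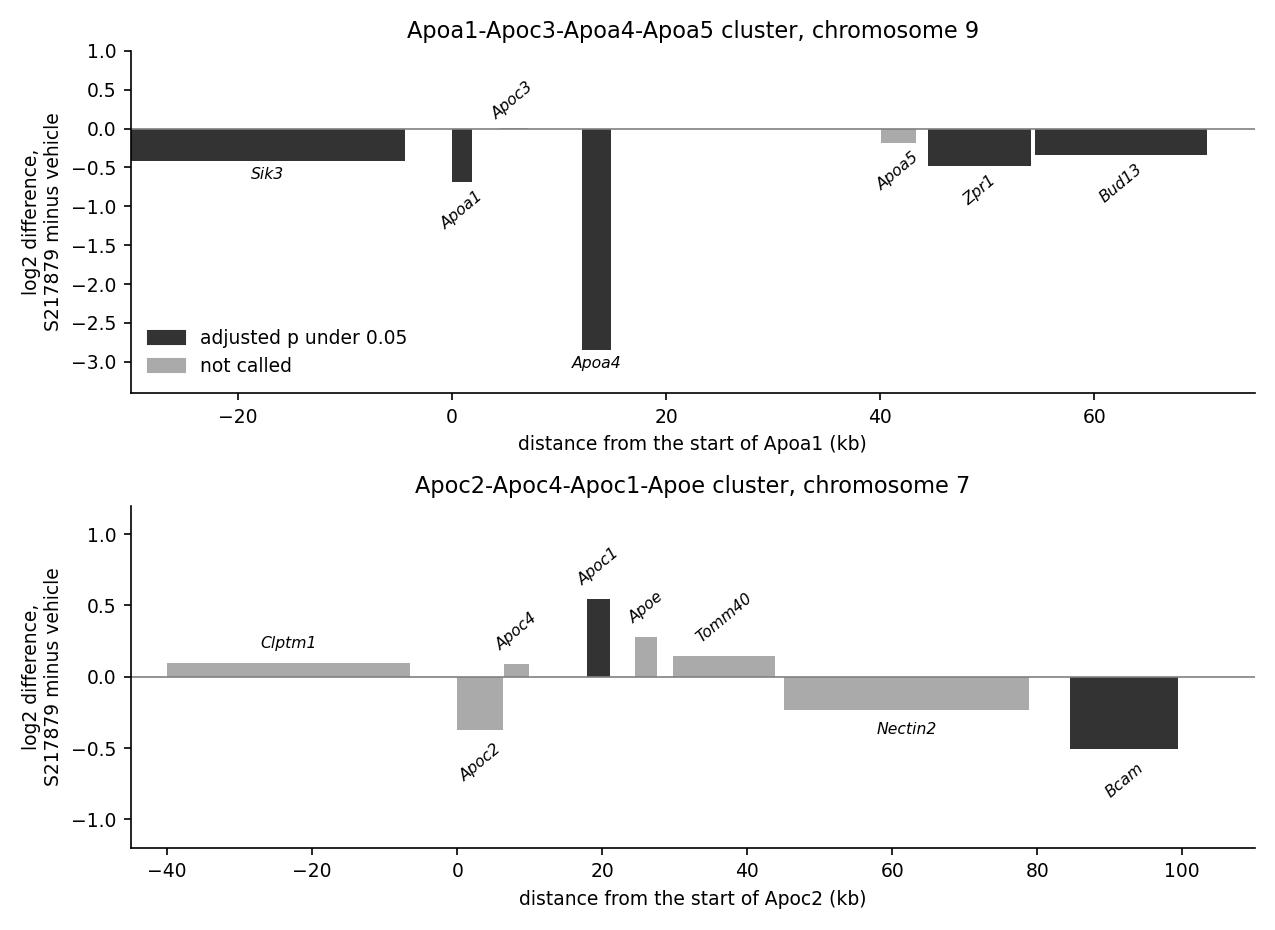
Log2 difference, S217879 minus vehicle, of the genes of both apolipoprotein clusters against distance in kb from the start of Apoa1 (upper panel) and of Apoc2 (lower panel). Bar width is gene length (Sik3 runs past the edge), dark bars had an adjusted p under 0.05, and predicted gene models are not drawn. Apoc3, at 0.01, has almost no bar between Apoa1 at -0.69 and Apoa4 at -2.84.

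Of 23 tested genes next to the members' loci, 1 was higher and 7 were lower, near the all-gene shares of 6.07% and 23.5%. Median-of-ratios scaling gave 9 higher and 8 lower, against all-gene shares of 26.6% and 27.1%. Leaving out 1 library at a time gave 5 to 10 lower, and 2637 to 5194 lower among all tested genes. Nr1i3, the xenobiotic receptor CAR, lies upstream of Apoa2 and was higher, at 78.2 ± 11.1 TPM in S217879 livers and 50.5 ± 17.6 TPM in vehicle livers (log2 difference 0.70, adjusted p = 1.0e-03, limma). On the other side of Apoa2, Fcer1g, the gamma chain of immune receptors, was lower, at 29.5 ± 4.75 TPM in S217879 livers and 42.4 ± 6.63 TPM in vehicle livers (-0.52). Bcam, a laminin-binding adhesion molecule in the region of Apoe, was lower, at 4.85 ± 1.40 TPM in S217879 livers and 7.06 ± 1.80 TPM in vehicle livers (-0.50). Sik3, a kinase gene just before Apoa1, stood at -0.42, and Zpr1, just after Apoa5, at -0.48, both called lower.

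RefSeq promoter windows (GRCm38.p6, 250 bases before to 50 after the start) were at hand for 8 of the 10 members, the exceptions being Apoc1 and Apoc3. Those of Apoa1 and Apoa4, the pair lower within 1 cluster, and of Apoa2, the HDL gene that was higher, are shown up to the annotated start, 5′ to 3′ on the plus strand, from chr9:46228380-46228579, chr9:46240594-46240695 and chr1:171224804-171225053. No letters are capitalised because no searched motif matched.
Apoa1: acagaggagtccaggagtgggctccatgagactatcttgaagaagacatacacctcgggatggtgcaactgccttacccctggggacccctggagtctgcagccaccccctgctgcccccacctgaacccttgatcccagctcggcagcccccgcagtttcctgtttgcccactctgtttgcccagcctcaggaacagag
Apoa4: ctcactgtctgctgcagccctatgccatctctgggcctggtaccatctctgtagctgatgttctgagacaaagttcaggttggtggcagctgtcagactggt
Apoa2: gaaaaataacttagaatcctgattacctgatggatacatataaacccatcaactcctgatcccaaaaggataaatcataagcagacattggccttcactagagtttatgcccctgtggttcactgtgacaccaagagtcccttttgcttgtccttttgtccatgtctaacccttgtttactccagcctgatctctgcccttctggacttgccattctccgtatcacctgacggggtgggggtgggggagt

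In the full windows of the 8 members, on both strands, there were 0 matches to TGACNNNGC, the core of the antioxidant response element that NRF2 binds, which was found in 12.5% of 27025 promoter windows. There were also 0 matches to CAAAGTCCA (an HNF4 site, 0.477% of windows), the direct repeat of nuclear receptors with a spacer of 1 base (0.0444%), the palindrome of HNF1 (0.0074%) and the direct repeat with a spacer of 4 bases that LXR binds (0.0111%). The RefSeq start of a window lay 249 bases from the GENCODE gene start for Apom, 148 for Apoa4, 50 for Apoa1 and 29 for Apob. The windows of Apom and Apoa4 thus held only 1 and 102 bases before both starts, so little sequence upstream of their GENCODE starts was searched. No match says only that these letters are not in these windows.

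The other 13 tested apolipoprotein genes held 2 that were higher and 3 that were lower, with a median log2 difference of -0.25. The share lower was near the 23.5% of all tested genes, of which 6.07% were higher. On the median-of-ratios scale the counts were 4 higher and 3 lower, against 26.6% and 27.1% of all genes. Saa4, the constitutive serum amyloid A of HDL, was higher, at 240 ± 56.6 TPM in S217879 livers and 163 ± 40.5 TPM in vehicle livers (0.58, adjusted p = 0.0027, limma). Apoo, whose product works in mitochondrial cristae, was also higher, at 27.5 ± 3.76 TPM in S217879 livers and 19.8 ± 4.25 TPM in vehicle livers (0.49). Apof, known in humans as an inhibitor of lipid transfer, was lower, at 284 ± 59.5 TPM in S217879 livers and 408 ± 85.8 TPM in vehicle livers (-0.52), as were Apol7a (-0.42) and Clu, which encodes the chaperone clusterin (-0.39). The inducible Saa1 was not called, at 169 ± 116 TPM in S217879 livers and 177 ± 39.4 TPM in vehicle livers, nor was Saa2, at 105 ± 67.5 TPM in S217879 livers and 125 ± 30.1 TPM in vehicle livers. Without vehicle replicate 6 the number lower was 5, in a fit that called 5194 of all genes lower against 3151 in the full set.

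Of 16 genes of VLDL assembly and secretion, 1 was higher, 1 was lower and the median was 0.09, where 6.07% of all tested genes were higher and 23.5% were lower. Both called genes belong to the enzyme complex that edits Apob mRNA. A1cf, the RNA-binding partner of the editing enzyme, was higher, at 127 ± 12.2 TPM in S217879 livers and 90.1 ± 17.7 TPM in vehicle livers (0.52, adjusted p = 0.0012, limma), with 10 of 10 S217879 livers above the vehicle median. Apobec1, the deaminase that turns a glutamine codon of Apob into a stop, was lower, at 17.5 ± 2.81 TPM in S217879 livers and 27.0 ± 4.26 TPM in vehicle livers (-0.61, adjusted p = 5.3e-05, limma), with 10 of 10 below. Both were called in 35 of 35 settings. Mttp, which loads lipid onto apolipoprotein B, averaged 107 ± 13.2 TPM in S217879 livers and 102 ± 20.1 TPM in vehicle livers and was not called (adjusted p = 0.60, limma). With median-of-ratios scaling 10 of the 16 were higher, Mttp at 0.21 among them, where 26.6% of all genes were. Without vehicle replicate 6 the number lower was 4, in a fit that called 5194 of all genes lower against 3151 in the full set.

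Of 13 genes of HDL assembly and remodelling, 1 was higher and 3 were lower, near the all-gene shares of 6.07% and 23.5%, with a median of -0.17. On the median-of-ratios scale the counts were 3 higher and 4 lower, where the all-gene shares were 26.6% and 27.1%. Lipg, endothelial lipase, which cleaves HDL phospholipid, was lower, at 5.28 ± 2.09 TPM in S217879 livers and 11.8 ± 3.04 TPM in vehicle livers (-1.12, adjusted p = 1.8e-04, limma). Pltp, the phospholipid transfer protein, was lower, at 49.8 ± 8.09 TPM in S217879 livers and 73.1 ± 12.9 TPM in vehicle livers (-0.55), and so was Bmp1, the protease that trims the pro-peptide of apolipoprotein A-I (-0.48). Gpld1, a phospholipase D that circulates on HDL, was higher, at 163 ± 12.5 TPM in S217879 livers and 127 ± 30.2 TPM in vehicle livers (0.41). Abca1, which lipidates apolipoprotein A-I, averaged 54.8 ± 7.32 TPM in S217879 livers and 64.6 ± 10.1 TPM in vehicle livers and was not called. Lcat, which esterifies HDL cholesterol, averaged 382 ± 50.2 TPM in S217879 livers and 361 ± 88.8 TPM in vehicle livers and was not called. Without vehicle replicate 6 the number lower was 7, in a fit that called 5194 of all genes lower against 3151 in the full set.

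Of 16 genes of lipoprotein clearance and lipase control, 3 were higher and 7 were lower, with a median of -0.06, where 6.07% of all tested genes were higher and 23.5% were lower. On the median-of-ratios scale the counts were 7 higher and 7 lower, against all-gene shares of 26.6% and 27.1%. Lsr, the lipolysis-stimulated receptor, was lower, at 60.2 ± 12.5 TPM in S217879 livers and 103 ± 15.5 TPM in vehicle livers (-0.78, adjusted p = 5.8e-06, limma). The remnant receptor Lrp1 (-0.62) and the VLDL receptor gene Vldlr (-0.73) were lower too. Sdc1, the heparan sulphate proteoglycan that takes up remnants in the liver, stood at -0.67, and Angptl4, an inhibitor of lipoprotein lipase, at -0.41.

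The 3 higher genes of that list were Sort1, Lpl and Gpihbp1. Sort1, the sorting receptor for apolipoprotein B, averaged 9.61 ± 1.89 TPM in S217879 livers and 5.21 ± 1.46 TPM in vehicle livers (0.85, adjusted p = 4.8e-06, limma). Lpl, lipoprotein lipase itself, averaged 47.7 ± 7.58 TPM in S217879 livers and 29.3 ± 4.92 TPM in vehicle livers (0.70, adjusted p = 1.2e-05, limma), and its endothelial anchor Gpihbp1 averaged 19.8 ± 2.13 TPM in S217879 livers and 15.5 ± 3.26 TPM in vehicle livers (0.36). The groups did not overlap for Sort1 and Lpl, which was so for 1.84% of all tested genes with S217879 higher. All 10 calls of the list kept their direction and their side of the threshold in each alternative setting in which the gene was tested.

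Of 34 transcription factors known to act on apolipoprotein genes, 8 were lower and the others were not called, with a median log2 difference of -0.21. The share lower equalled the 23.5% of all tested genes. Median-of-ratios scaling gave 2 higher and 10 lower, against all-gene shares of 26.6% and 27.1%. Leaving out vehicle replicate 6 gave 18 lower, in a fit that called 5194 of all genes lower. Srebf2, the regulator of cholesterol synthesis, was lower, at 15.4 ± 3.35 TPM in S217879 livers and 25.6 ± 4.11 TPM in vehicle livers (-0.73, adjusted p = 9.1e-06, limma). Foxa3, a hepatocyte forkhead factor, was lower, at 24.1 ± 4.61 TPM in S217879 livers and 38.7 ± 8.49 TPM in vehicle livers (-0.66). Hnf4a, the nuclear receptor that binds many apolipoprotein promoters, averaged 268 ± 42.7 TPM in S217879 livers and 256 ± 54.5 TPM in vehicle livers (0.09, adjusted p = 0.67, limma). Creb3l3, the membrane-bound factor known in mice to activate Apoa4, averaged 166 ± 23.1 TPM in S217879 livers and 197 ± 38.7 TPM in vehicle livers (-0.23, adjusted p = 0.19, limma), and it was called lower in 7 of 35 settings.

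Hepatocyte markers also differed in both directions. Of 12 hepatocyte markers 4 were higher and 2 were lower. The all-gene shares were 6.07% higher and 23.5% lower. Median-of-ratios scaling called 5 of these markers higher and 2 lower, beside all-gene shares of 26.6% and 27.1%. When vehicle replicate 6 was left out, the lower markers numbered 4, and that fit called 5194 of all genes lower instead of 3151. Ttr, the thyroxine carrier transthyretin, was higher, at 6514 ± 811 TPM in S217879 livers and 4741 ± 1227 TPM in vehicle livers (0.50). Trf, transferrin, was lower, at 1394 ± 236 TPM in S217879 livers and 2433 ± 422 TPM in vehicle livers (-0.80). Ahsg, fetuin-A, was lower as well, at 3828 ± 783 TPM in S217879 livers and 5600 ± 1187 TPM in vehicle livers (-0.54).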

How the data were processed

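RNA of 20 mouse livers (10 S217879, 10 vehicle) was purified with an RNeasy lipid kit and made into stranded polyA libraries, per the labels' protocols. Trimmomatic 0.36, STAR 2.5.2b, featureCounts, Subread 1.5.2 and GRCm38 are named in the submitters' processing notes, but the sources used here give no settings, annotation, strand use or rule for multiply matching reads. The values are TPM deposited by the authors, and each library sums to 1000000, so a gene that takes a large share lowers all others. Columns were matched to samples by animal number, and 0 were left unmatched.

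Genes averaging 1 TPM or more were compared as log2(TPM + 0.5) with limma 3.58.1 in R 4.3.3 (trend and robust, group as the only term). This scale understates fold changes of low genes. The method was tested on simulated data. Ratios within a library were compared with permutation tests in SciPy 1.17.1. Coordinates and overlaps come from GENCODE M21 (GRCm38). The members and gene lists were chosen with earlier results of these data known. From each list the 2 highest and 2 lowest called genes are named, except that some are not reported here, and for Apoa4 the 5 genes of closest deviations. Bmp1, Clu, Gpihbp1, Lrp1, Vldlr, Sdc1, Angptl4, Sik3, Zpr1, Krt20, Vil1, Clec4g and genes not called were named after their values were seen. The labels name no cage or batch, so p-values measure the spread between these animals.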

Additional observations from a re-analysis of the deposited data

Results flagged for a closer look

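Of 108 combinations of a named gene or ratio and a group, 10 (9.26%) held a liver far from the other 9, where chance flags about 1 in 20. In S217879 replicate 9, Apoa1 was 10234 TPM, Saa4 381.3 TPM, Trf 1972 TPM and Ahsg 5752 TPM, each the highest of its group. This liver also had the highest Apoa4 value among S217879 livers, 863.6 TPM. S217879 replicate 2 had the lowest Apoa5 value of its group, 579.0 TPM, and vehicle replicate 6 the lowest Apob value of its group, 604.6 TPM. S217879 replicate 4 had the highest Apoo value, 36.6 TPM, and the highest ratio of Apoc2 to Apoe, 4.64e-04, of its group. S217879 replicate 8 had the highest Col3a1 value of its group, 38.1 TPM, which was below every vehicle liver (42.7 to 85.4 TPM). Vehicle replicate 4 had the highest ratio of Apoc1 to Apoe of its group, 0.232.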

How the results depend on the processing

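The reads per library are unknown and each library has the same total, which limits what a count of calls can show. No paired analysis was possible because the animals are numbered separately and no number is shared between the groups. Of the 35 settings, 33 were planned, and 2 were chosen after seeing the data: the rescaling without the 4 rRNA-type genes and the median-of-ratios scaling, each also without vehicle replicates 6 and 7.

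Genes called higher numbered 813 as deposited, 3562 with median-of-ratios scaling, 3536 with quantile normalization, 1529 without the 20 most abundant genes, and 3246 with median-of-ratios scaling without vehicle replicates 6 and 7. Genes called lower numbered 3151 as deposited, 1642 at a minimum of 5 TPM, 9111 without the 4 rRNA-type genes, 8150 without the 20 most abundant genes, 8023 with array weights, 7307 without vehicle replicates 6 and 7, 8391 with both of these libraries and the rRNA-type genes left out, and 5194 without vehicle replicate 6 alone. Leaving out 1 library at a time gave 709 to 877 higher and 2637 to 5194 lower. Of the apolipoproteins, 1 was called higher with quantile normalization and without S217879 replicate 5. The number lower was 7 without the 4 rRNA-type genes, and 6 without the 20 most abundant genes, with quantile normalization and with array weights. It was also 6 without vehicle replicates 6 and 7, both on the deposited values and with the rRNA-type genes left out as well. Without vehicle replicate 6 alone it was 5. Over single left-out libraries it ran from 3 to 5, and the number higher from 1 to 2. The pathway lists held, as tested on the deposited values, 13 other apolipoproteins, 16 genes of VLDL assembly, 13 of HDL assembly and 16 of clearance. They also held 34 transcription factors and 23 neighbours of the members' loci, with Apoc4 counted once. Of these genes 8 were higher and 29 lower as deposited, where 6.07% of all tested genes were higher and 23.5% lower. The all-gene counts above are the background of the counts that follow. The number higher was 34 with median-of-ratios scaling (30 without vehicle replicates 6 and 7), 13 without the 20 most abundant genes and 19 with quantile normalization. The number lower was 71 without the 4 rRNA-type genes, 63 without the 20 most abundant genes, 68 with array weights, 65 without vehicle replicates 6 and 7, 69 with those and the rRNA-type genes left out, and 51 without vehicle replicate 6. Single left-out libraries gave 8 higher throughout and 25 to 51 lower. The causes of these moves were not tested.

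Apoc3 changed sign to -0.13 without the 4 rRNA-type genes and -0.24 with quantile normalization. The summed apolipoprotein share was 8.98% in S217879 livers and 8.82% in vehicle livers without the 4 rRNA-type genes. Apoa1, Apoa4, Apoc1 and Apom kept their calls in all 35 settings.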

Other observations

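Fat cell markers were read in the same livers. Adipoq, Plin1, Lep and Retn, defining genes of fat cells, averaged under 0.1 TPM in both groups. At these levels Adipoq averaged 0.0343 TPM in S217879 livers and 0.00949 TPM in vehicle livers, and Retn 0.0413 TPM in S217879 livers, of which 9 of 10 lay above the vehicle median, and 0.00548 TPM in vehicle livers; neither was tested. Cfd, the complement protease adipsin, was higher, at 102 ± 57.4 TPM in S217879 livers and 20.8 ± 12.5 TPM in vehicle livers (log2 difference 2.37, adjusted p = 2.9e-04, limma). Its groups did not overlap, which was so for 1.84% of all tested genes with S217879 higher. Fabp4, a fatty acid carrier of fat cells and macrophages, averaged 9.14 ± 3.38 TPM in S217879 livers and 12.1 ± 2.83 TPM in vehicle livers (-0.41, adjusted p = 0.045, limma), a call that held in 14 of 35 settings. Cidea, a lipid droplet protein, averaged 28.2 TPM in S217879 livers and 41.4 TPM in vehicle livers and was not called (-0.57, adjusted p = 0.076, limma). Of the 4 bile duct markers tested, Spp1 (-1.04) and Epcam (-0.64) were lower, where 23.5% of all tested genes were. Krt19 and Sox9 were not called. Spp1 is also counted among the macrophage markers above, and the call of Epcam held in 24 of 35 settings.

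Within groups, after median-of-ratios scaling, Apoa2 and Apoc3 varied together most closely among the members (Pearson's r 0.68 over 20 livers), and Apoa1 varied with Apoa4 (0.58). Apob went against Apoe (-0.58) and Apoa1 (-0.54). These correlations share libraries and scaling, and no test was made of them.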
